A study of Mus musculus with 2 samples.

Results

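The mitochondrial carriers and uncoupling proteins were taken as every protein-coding gene whose symbol begins with Slc25a, together with Ucp1, Ucp2 and Ucp3. The rule selected 50 of the 22028 protein-coding genes, and of 55536 genes in all, of the GENCODE M21 annotation. They were measured in 2 total RNA-seq libraries of gastrocnemius, the large calf muscle, from male B6CASTF1/J mice aged 2 months. These animals are first-generation hybrids of the B6 and CAST strains, with no treatment and no engineered allele named in the labels. Library input was 300 ng of RNA, and ERCC spike-ins had been mixed in. By the labels, the libraries are biological replicates 1 and 2 of 1 group, from separate tissue samples that share a donor entry. That the samples came from separate animals is not said, so differences between the libraries may be technical, and the p-values set them against counting error alone.

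Most carriers of this family sit in the inner membrane of the mitochondrion and are built from repeated pairs of membrane helices. They move small molecules between the cytosol and the matrix. Slc25a17, the peroxisomal member, and Slc25a46, an outer membrane member, sit elsewhere. In working muscle the heaviest traffic is ADP inward, ATP outward and phosphate inward, the supplies and product of ATP synthase. Other members carry the malate and aspartate of the shuttle that brings reducing equivalents in, fatty acyl groups bound to carnitine, amino acids, nucleotides, vitamins and iron. The uncoupling proteins share the fold. Ucp1 lets protons leak back and makes heat in brown fat, whereas the transport roles of Ucp2 and Ucp3 are less settled.

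Expected counts over genes came to 42925570 (replicate 1) and 42467674 (replicate 2) with the spike-ins. Reads of the members made up 0.296% of them in replicate 1 and 0.341% in replicate 2. Muscle identity was checked on markers of fast fibres, which were abundant: the 6 fast fibre genes, such as Myh4 and Actn3, had summed levels of 41959 (replicate 1) and 32647 TPM (replicate 2). TPM is a share of transcripts, a level scaled for gene length and depth. The 8 slow fibre genes, such as Myh7 and Tnni1, had summed levels of 1249 and 3195 TPM. Testis (5 genes) and liver (3 genes) markers were at or near 0, with sums of at most 0.08 TPM. In bulk tissue, more cells of a type and more RNA per cell cannot be told apart.

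The levels of the 50 members added up to 2069 (replicate 1) and 2374 TPM (replicate 2), a mean of 2221 ± 215 TPM (SD, n = 2). This was 0.438% and 0.514% of the TPM of all protein-coding genes. A few members held nearly all of it. The single most abundant, Slc25a4, held 51.8% of the members' TPM in replicate 1 and 50.5% in replicate 2. The 4 most abundant held 83.8% and 84.1%, and the 10 most abundant 92.1% and 92.5%. In both libraries 36 members were at 1 TPM or more, 15 at 10 or more and 4 at 100 or more. The 4 above 100 TPM were Slc25a4, Slc25a3, Slc25a12 and Slc25a11, the carriers of ADP and ATP, phosphate, aspartate and glutamate, and oxoglutarate and malate.

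**Figure D1:**
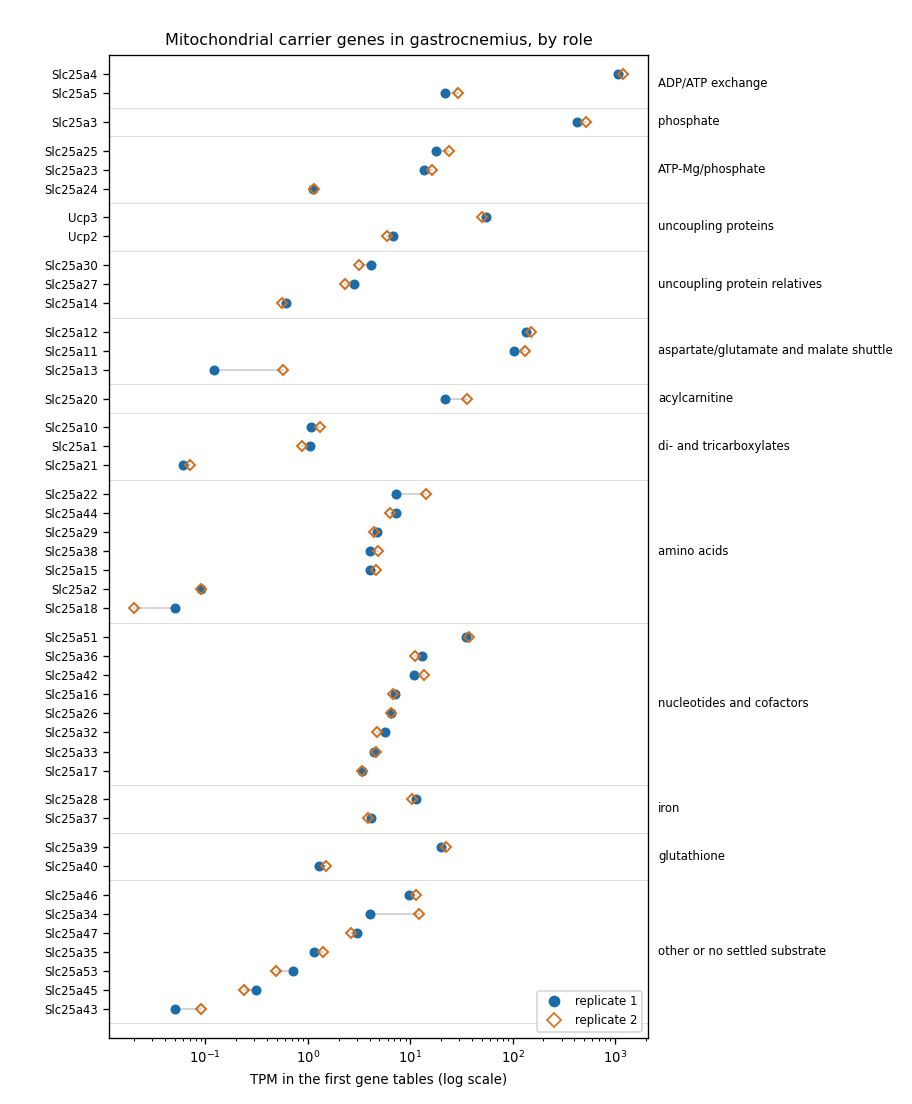
TPM of 44 members above 0 in both libraries, on a log axis, grouped by the substrate they carry; filled circles are replicate 1 and open diamonds replicate 2. Slc25a4 and Slc25a3 stand at the right, and the widest gaps between libraries are those of Slc25a13, Slc25a34, Slc25a22 and the barely detected Slc25a18.

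The ADP/ATP carriers, which exchange matrix ATP for cytosolic ADP, were represented almost entirely by Slc25a4, the form of heart and skeletal muscle. Its gene lies on chr8:46206797-46211284 (mm10, minus strand). Slc25a4 stood at 1073 (replicate 1) and 1198 TPM (replicate 2), rank 43 and 37 among protein-coding genes. Slc25a5, an X-linked form of growing cells, stood at 21.9 and 29.4 TPM. Slc25a31, the form of male germ cells, had 0 reads in both libraries, where 3 reads, the limit that a count of 0 allows, would equal 0.0430 TPM in each. Slc25a4 thus held 97.8% ± 0.279 (SD, n = 2) of the TPM of the 3 carriers, being 49.0 and 40.8 times as abundant as Slc25a5. Against the 3-read limit of Slc25a31, Slc25a4 was at least 24922-fold higher in replicate 1 and at least 27852-fold higher in replicate 2. The coding sequences of Slc25a4 and Slc25a5 are 77.8% identical, and the longest stretch they share without a mismatch is 20 nt.

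Slc25a3, the phosphate carrier, which also brings copper to the matrix, followed at 423 (replicate 1) and 517 TPM (replicate 2). Its gene holds a pair of mutually exclusive coding exons. Exon 3A is known as the form of heart and skeletal muscle and exon 3B as the widespread form. Both are on the minus strand of mm10, exon 3A (125 nt) at chr10:91122207-91122331 and exon 3B (122 nt) at chr10:91121922-91122043. They are shown because the transcript tables separate carriers by this choice. Capitals mark the bases that differ or have no partner when the exons are aligned, where 84 of 128 aligned columns (65.6%) were identical.
Slc25a3 exon 3A: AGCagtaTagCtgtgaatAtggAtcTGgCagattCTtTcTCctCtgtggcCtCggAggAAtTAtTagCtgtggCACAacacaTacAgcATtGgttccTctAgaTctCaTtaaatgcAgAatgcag
Slc25a3 exon 3B: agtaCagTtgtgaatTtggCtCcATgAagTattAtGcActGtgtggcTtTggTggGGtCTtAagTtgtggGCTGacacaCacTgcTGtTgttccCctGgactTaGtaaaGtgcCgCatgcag

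Slc25a3 transcripts with exon 3A were the major class. Of the TPM in transcripts carrying one or the other exon, those with exon 3A held 94.5% in replicate 1 and 93.9% in replicate 2, or 94.2% ± 0.415 (SD, n = 2). Almost all of this was the coding transcript Slc25a3-206, at 396 (replicate 1) and 482 TPM (replicate 2). The main transcript with exon 3B, Slc25a3-201, was at 20.9 TPM and 28.6 TPM. These values come from the first kind of transcript table, which is derived from alignments to the transcriptome. The second kind, derived from a file of reads per library, gave exon 3A a share of 82.2% in replicate 1 and 82.8% in replicate 2. Among the transcripts with exon 3B, Slc25a3-203 was at 2.11 and 2.53 TPM in the first tables but 95 and 103 TPM in the second. Exon 3A was the major form in every table. The share of exon 3B was 5.48% and 6.07% in the first tables and 17.8% and 17.2% in the second, and the cause was not tested.

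**Figure D2:**
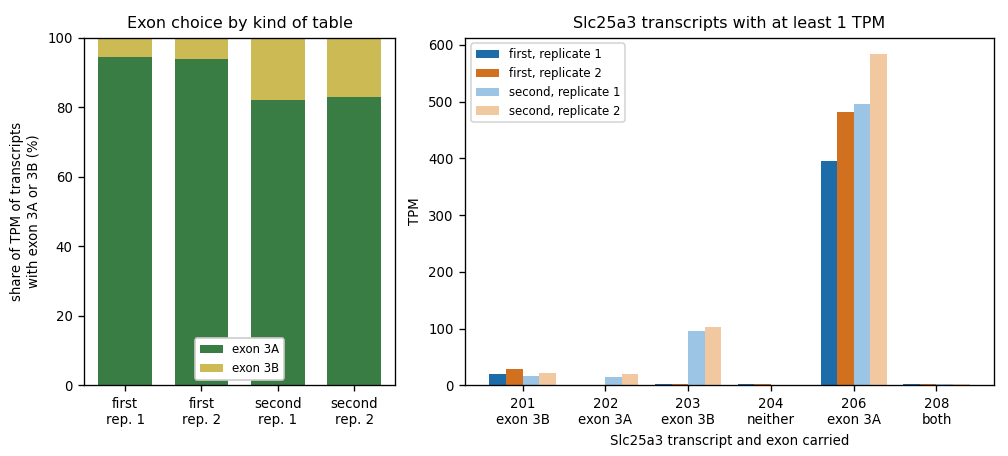
Left, share of Slc25a3 TPM in transcripts with exon 3A or exon 3B, by kind of table and library; right, TPM of the 6 Slc25a3 transcripts with at least 1 TPM in any table. Exon 3A holds 93.9% to 94.5% in the first tables and 82.2% to 82.8% in the second, and Slc25a3-203 is near 0 in the first tables only.

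The ATP-Mg/phosphate carriers adjust the pool of adenine nucleotides in the matrix and most of them respond to calcium. Slc25a25 was the most abundant of these 4, at 17.7 (replicate 1) and 23.7 TPM (replicate 2). Slc25a23 was at 13.5 and 16.4 TPM, and Slc25a24 at 1.11 and 1.16 TPM. Slc25a41 had 0 reads in both libraries although it lies only 2.056 kb from Slc25a23 on chromosome 17. Slc25a25 exceeded Slc25a23 by 1.31 times in replicate 1 and 1.44 times in replicate 2, but by only 1.01 and 1.17 times in the second tables, so their order was close.

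Of the uncoupling proteins, Ucp3 was the muscle form and ranked 5 among the members. Ucp3 was at 55.3 (replicate 1) and 50.7 TPM (replicate 2). Ucp2, a form widely found in immune and other cells, was at 6.84 and 5.95 TPM, so that Ucp3 exceeded it 8.09 times in replicate 1 and 8.52 times in replicate 2. In the second tables the excess was 5.81 and 5.89 times. Macrophage markers, another place where Ucp2 is expressed, had a sum of 26.8 and 22.6 TPM over 8 genes, none of them at 0 reads; their part in the level of Ucp2 was not tested. The genes are neighbours, 6.904 kb apart on chromosome 7 and on the same strand, and their coding sequences are 74.8% identical.

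No read of Ucp1 was counted in either library, and the 3 reads that such a 0 allows would equal 0.0568 TPM in each. Of the 6 brown fat markers, Elovl3 was also at 0 reads and Cidea was at 0.43 (replicate 1) and 1.32 TPM (replicate 2). The list summed to 1146 and 1392 TPM, nearly all of it Cox7a1 and Cox8b, respiratory chain subunits that muscle also makes. The carriers also called uncoupling proteins were low: Slc25a30 was at 4.13 and 3.19 TPM, Slc25a27 at 2.84 and 2.28 TPM, and Slc25a14 at 0.61 and 0.56 TPM. Slc25a27 and Slc25a14 are best known from brain, and Slc25a30 from kidney.

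The carriers of the malate-aspartate shuttle were high. Slc25a12, the calcium-regulated aspartate/glutamate carrier of excitable tissues, was at 135 (replicate 1) and 150 TPM (replicate 2). Its partner Slc25a11, the oxoglutarate/malate carrier, was at 104 and 131 TPM. Slc25a13, the liver form of the aspartate/glutamate carrier, had only 12 reads (0.12 TPM) in replicate 1 and 44 reads (0.57 TPM) in replicate 2. The other carriers of di- and tricarboxylates were low in both libraries: Slc25a1, the citrate carrier used in fat synthesis, was at 1.06 and 0.87 TPM, Slc25a10, the dicarboxylate carrier, at 1.08 and 1.30 TPM, and Slc25a21, the oxodicarboxylate carrier, at 0.06 and 0.07 TPM.

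Slc25a20, which brings acylcarnitines in for fatty acid oxidation, was at 21.6 (replicate 1) and 35.6 TPM (replicate 2). Among the amino acid carriers, Slc25a22, a glutamate carrier, was at 7.30 and 14.4 TPM, Slc25a44, which carries branched-chain amino acids, at 7.25 and 6.32 TPM, and Slc25a29, a carrier of basic amino acids, at 4.75 and 4.47 TPM. Slc25a38, the glycine carrier needed for haem, was at 4.09 and 4.88 TPM and Slc25a15, the ornithine carrier, at 4.01 and 4.59 TPM. Slc25a18, the second glutamate carrier, had 3 reads in replicate 1 and 1 in replicate 2, and Slc25a2, the second ornithine carrier, had 4 in each. Of each of these paralog pairs, 1 copy was expressed and the other was nearly silent.

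Slc25a51, the NAD carrier, led the carriers of nucleotides and cofactors at 35.3 (replicate 1) and 37.7 TPM (replicate 2). Slc25a36, a pyrimidine nucleotide carrier, was at 13.2 and 11.2 TPM, against 4.43 and 4.67 TPM for its paralog Slc25a33. Slc25a42, which carries coenzyme A, was at 10.8 and 13.6 TPM, and Slc25a16, of less certain substrate, at 7.12 and 6.84 TPM. Slc25a26 (S-adenosylmethionine), Slc25a32 (folate and flavin) and Slc25a17 (the peroxisomal member) lay between 3.41 and 6.48 TPM. All 9 members of this group were expressed, with a sum of 103.5 ± 0.318 TPM (SD, n = 2) that was nearly the same in the libraries.

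Slc25a39, a carrier of glutathione, was at 20.2 (replicate 1) and 22.4 TPM (replicate 2), or 15.6 and 14.7 times its paralog Slc25a40. Slc25a28, one of the iron carriers called mitoferrins, was at 11.3 and 10.3 TPM, 2.73 and 2.66 times Slc25a37, the mitoferrin of red cell precursors. Of the 9 members with other or unsettled roles, Slc25a46, an outer membrane member that affects mitochondrial shape, was at 9.62 and 11.4 TPM. Slc25a34, a member without a settled substrate, was at 4.04 (replicate 1) and 12.2 TPM (replicate 2). Slc25a47, known from liver, Slc25a35, Slc25a53 and Slc25a45 lay between 0.24 and 3.03 TPM. Slc25a43 had 2 and 3 reads, Slc25a48 had 1 and 0, and Slc25a54, 6.461 kb from Slc25a24 on chromosome 3, had 0 in both.

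The design holds 1 group, so the only comparison is between its libraries. It asks how far the carrier levels varied between muscle samples of the same label, and it describes these libraries, not a condition. After TMM scaling, an exact conditional binomial test (two-sided) was run on the 14827 genes whose counts summed to 20 or more, with Benjamini-Hochberg adjustment over all of them. Of the 50 members 41 had enough reads, while 4 had 0 reads and 5 had 1 to 11 in all. Of the 41, 16 were higher in replicate 2 at an adjusted p under 0.05, where 14.4% of all genes tested were. A further 2 were higher in replicate 1, where 11.7% of all genes were, and 23 were not called. The test's power grows with reads: among genes of 200 or more reads in sum, 15 of 32 members were higher in replicate 2 against 18.8% of genes, and 2 were higher in replicate 1 against 14.8%. With the second tables, by the same rule, 17 of 41 members were higher in replicate 2 against 14.7% of genes, and none was higher in replicate 1 against 10.2%. The median log2 ratio of replicate 2 over replicate 1 was 0.13 over the 41 members and 0.00 over all genes tested.

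Past 1.5-fold at an adjusted p under 0.05 there were 4 members, all higher in replicate 2, where 4.19% of all genes tested were. Slc25a34 had 357 reads in replicate 1 and 1079 in replicate 2, a log2 ratio of 1.64 (95% interval 1.47 to 1.82). Slc25a22 had 458 and 990 reads, a log2 ratio of 1.16 (1.00 to 1.32). Slc25a20 had 1250 and 2061 reads, a log2 ratio of 0.77 (0.67 to 0.87). The intervals hold counting error alone, because each side of a ratio is a single library. The reads also carry no molecular identifiers. Slc25a13 had the highest log2 ratio, 1.88, but rests on 12 against 44 reads and has an interval of 0.98 to 2.98. In the other direction no member passed 1.5-fold, where 2.75% of all genes did.

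The abundant carriers differed by less, though with narrow intervals. The log2 ratio was 0.21 (0.20 to 0.23) for Slc25a4, 0.34 (0.31 to 0.37) for Slc25a3, 0.17 (0.13 to 0.20) for Slc25a12 and 0.39 (0.34 to 0.44) for Slc25a11. All 4 were called higher in replicate 2. Slc25a5 (0.48), Slc25a25 (0.53), Slc25a42 (0.43), Slc25a23 (0.39), Slc25a39 (0.33), Slc25a46 (0.28), Slc25a15 (0.26) and Slc25a51 (0.11) were called in the same direction. The call of Slc25a51 was lost with total counts (adjusted p = 0.196) or DESeq2 size factors (adjusted p = 0.108) as the scaling, in the same exact binomial test with Benjamini-Hochberg adjustment.

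Ucp3 and Slc25a36 were the 2 members called higher in replicate 1. The log2 ratio was -0.09 for Ucp3 (-0.15 to -0.03) and -0.14 for Slc25a36 (-0.25 to -0.03). By the exact binomial test with Benjamini-Hochberg adjustment, the adjusted p was 0.0178 for Ucp3 and 0.04998, just under the threshold, for Slc25a36. Both calls ended when the ERCC spike-in totals set the scale, with adjusted p = 0.403 for Ucp3 and 0.263 for Slc25a36 in the same exact test. They ended in the second tables too, with adjusted p = 0.0588 and 0.184 in that test. The log2 ratios of Ucp2 (-0.14), Slc25a30 (-0.08), Slc25a27 (-0.29) and Slc25a14 (-0.25) did not pass the test. The sign of these 5 ratios for Ucp3, Ucp2 and the uncoupling protein relatives was negative in both kinds of table. Both kinds come from the same libraries. Of the 41 tested members, 15 had a ratio below 0 in the first tables, where 50.3% of all genes tested had one above 0.

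**Figure D3:**
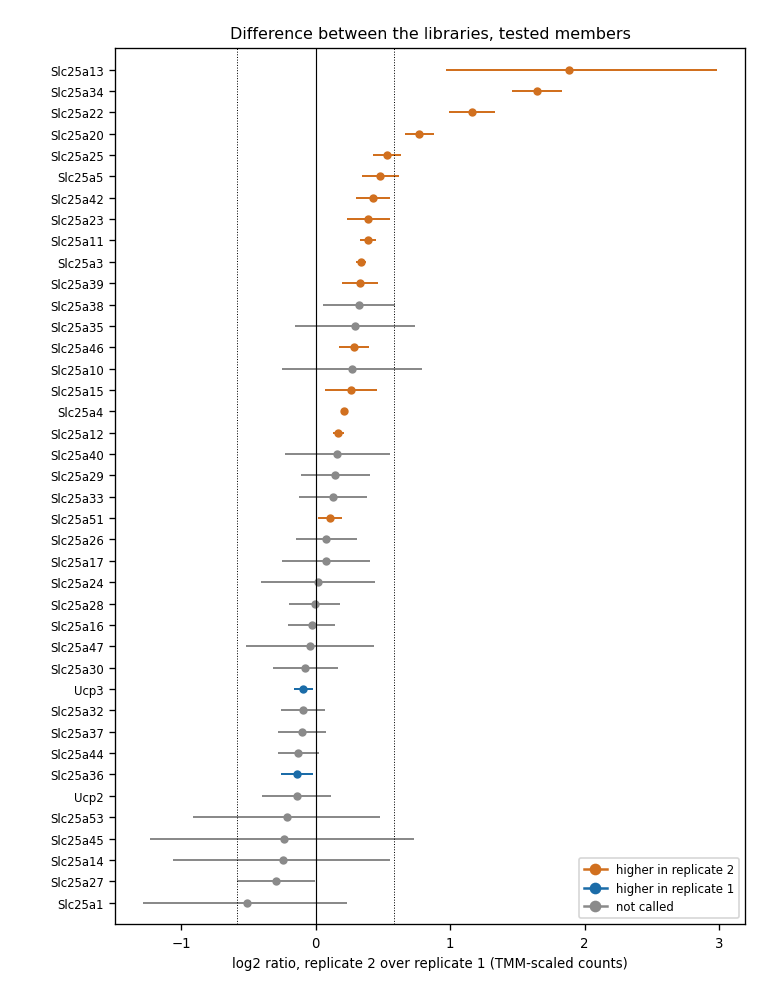
Log2 ratio of replicate 2 over replicate 1 for 40 of the 41 tested members, with 95% intervals from counting error; orange marks members called higher in replicate 2, blue higher in replicate 1, grey not called, and dotted lines mark 1.5-fold. The 4 members past 1.5-fold, Slc25a13, Slc25a34, Slc25a22 and Slc25a20, lie at the top, and Ucp3 and Slc25a36 lie just below 0.

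Fibre markers also differed between the libraries. Of all genes tested, 14.4% were called higher in replicate 2 and 11.7% higher in replicate 1. The median log2 ratio was 1.40 over the 8 slow fibre genes, each called higher in replicate 2. It was -0.40 over the 6 fast fibre genes, each called higher in replicate 1. None of these 14 genes was at 0 reads in either library. Slow fibres are the more oxidative kind, rich in mitochondria. The part of fibre content in the carrier ratios was not tested, and with 2 libraries it cannot be told apart from other differences between them. Endothelial markers were called higher in replicate 2 for 5 of 6 genes and higher in replicate 1 for the other, Egfl7, and their sum was 62.4 and 61.5 TPM. Fibroblast markers were called higher in replicate 1 for 4 of 5 genes, with a median log2 ratio of -0.57, and Col1a1 was called the other way; their sum was 236 and 213 TPM. Brown fat markers were called higher in replicate 2 for 4 of the 5 tested, with a median of 0.44. The 4 were Cidea, at 15 and 46 reads, Ppara, and Cox7a1 and Cox8b, which muscle also makes. Prdm16 was not called, and Elovl3 and Ucp1 were at 0 reads in both libraries. Whether brown fat content differed was not tested. No fibroblast or endothelial marker was at 0 reads, and the part of these cells in the carrier ratios was not tested. White fat markers summed to 6.41 and 3.38 TPM over 6 genes, with Retn at 0 in replicate 2.

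Genes that work with the carriers were read beside them. The list for ATP synthase, which the ADP, ATP and phosphate carriers serve, holds 15 nuclear genes and no mitochondrially encoded one. All 15 were called higher in replicate 2, against 14.4% of all genes tested and 18.8% of those with 200 or more reads in sum. Their log2 ratios had a median of 0.36. The most abundant were Atp5b, at 1264 (replicate 1) and 1596 TPM (replicate 2), Atp5a1 at 661 and 839 TPM, and Atp5g1 at 462 and 631 TPM. The kinds of table differed most plainly for Atp5g2, at 10.05 and 13.43 TPM in the first tables but 335 and 323 TPM in the second. Both subunits of the pyruvate carrier, which has another fold, were higher in replicate 2: Mpc1 was at 173 and 212 TPM and Mpc2 at 118 and 150 TPM. Of the outer membrane channels, Vdac1 was higher in replicate 2, at 533 and 567 TPM. The calls did not include Vdac3, at 202 and 200 TPM, or Vdac2, at 126 and 118 TPM.

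Carriers of the inner membrane reach it through the TIM22 pathway. The list read for it holds 13 genes, among them outer membrane import genes such as Tomm20 that are not particular to this pathway. Of the 13 genes 6 were higher in replicate 2, against 14.4% of all genes tested, and none in replicate 1, against 11.7%. The log2 ratios had a median of 0.15. The most abundant on the list were Timm8b at 82.8 and 86.3 TPM, Timm13 at 42.9 and 48.0 TPM and Tomm20 at 36.1 and 32.8 TPM. None of these was called. Of the 6 genes of the calcium uniporter, 2 were higher in replicate 2 and 1 in replicate 1. Smdt1, at 52.4 and 55.7 TPM, and Mcu, the pore, at 14.1 and 15.1 TPM, were not called. Mtch1 and Mtch2, outer membrane proteins related to the carriers but named otherwise, were both higher in replicate 2, at 30.8 and 33.4 TPM and at 61.1 and 63.6 TPM. The sideroflexins, serine and amino acid carriers of another family, were split, with 1 of 5 called each way; Sfxn3 was at 9.83 and 8.55 TPM, Sfxn5 at 2.32 and 3.73 TPM and Sfxn2 at 1.44 and 0.90 TPM.

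Of 10 regulators known to act on uncoupling proteins and oxidative genes, 8 were called higher in replicate 2, against 14.4% of all genes tested. The median of the 10 log2 ratios was 0.56. The most abundant were Esrra, an orphan nuclear receptor, at 31.4 and 40.8 TPM, Ppargc1a, a coactivator of mitochondrial genes, at 13.5 and 22.0 TPM, and Tfam, which maintains mitochondrial DNA, at 17.5 and 19.2 TPM. Ucp3, a known target of this network in muscle, was called in the other direction by a log2 ratio of -0.09. As described above, that call ended with ERCC spike-in totals and in the second tables.

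**Figure D4:**
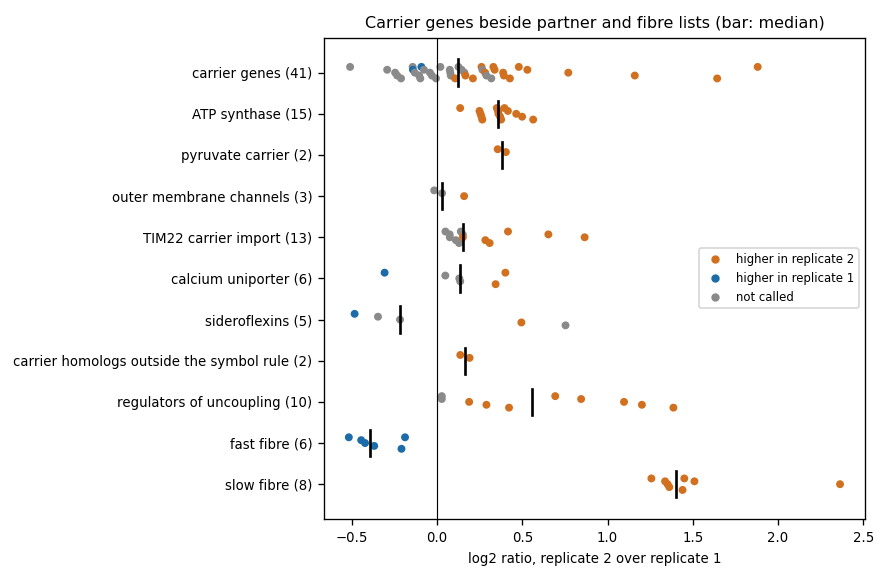
Log2 ratio of replicate 2 over replicate 1 for the tested carrier genes and for partner and fibre lists, 1 point per gene, with the number of genes in brackets and the median as a black bar; orange is higher in replicate 2, blue higher in replicate 1, grey not called. The 15 ATP synthase genes and the 8 slow fibre genes all lie above 0, the 6 fast fibre genes all below it, and the carrier genes on both sides.

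RefSeq promoters (GRCm38.p6) run from 250 bases before to 50 bases after each start and were matched by symbol for 39 of the 50 members, with 49 promoters in all. A gene was counted once if any of its promoters held a motif on either strand. The GC box GGGCGG occurred in 31 of the 39 members (79.5%), against 49.2% of 17491 protein-coding genes in the same table. These comparison genes were not matched to the members in expression. The sequence CCGGAAGT, bound by GABP, occurred in 1 member, Slc25a20 (2.56% against 5.69%). The E-box CAGCTG, of the type bound by MyoD, occurred in 6 members (15.4% against 17.4%), among them Slc25a34, Ucp2 and Ucp3. Also searched were the CCAAT box (48.7% of members against 42.3%) and the TATA box (5.13% against 14.8%). The MEF2 motif (5.13% against 4.01%), the NRF1 motif (5.13% against 7.17%) and a PPAR element (0% against 0.0572%) were searched too. The element TCAAGGTCA of oestrogen-related receptors occurred in no member and in 0.377% of protein-coding genes; this says only that these letters are not in these windows. The 250 bases before the start are shown for Slc25a20 and Slc25a34, which were past 1.5-fold and have 1 listed promoter each that holds the GABP sequence or the E-box, at chr9:108661886-108662135 (plus strand) and chr4:141623835-141624084 (minus strand), with GC boxes, the GABP sequence and the E-box in capitals. A match is a description of the letters and does not show binding.
Slc25a20 promoter: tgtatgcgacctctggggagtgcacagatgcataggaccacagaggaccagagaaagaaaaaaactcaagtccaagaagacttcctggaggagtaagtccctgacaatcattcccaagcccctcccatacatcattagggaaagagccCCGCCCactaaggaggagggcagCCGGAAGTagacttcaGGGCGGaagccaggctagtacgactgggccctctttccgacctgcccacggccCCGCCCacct
Slc25a34 promoter: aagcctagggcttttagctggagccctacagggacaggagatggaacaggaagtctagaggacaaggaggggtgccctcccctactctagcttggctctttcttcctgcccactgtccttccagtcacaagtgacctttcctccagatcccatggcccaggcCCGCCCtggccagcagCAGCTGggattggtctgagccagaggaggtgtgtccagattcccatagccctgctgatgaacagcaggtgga

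Transcripts of the carriers were mostly coding. The annotation gives the members 272 transcripts, and protein-coding transcripts held 90.9% of the members' TPM in replicate 1 and 91.5% in replicate 2, close to the 89.0% and 89.4% over all protein-coding genes. Among the 20 most abundant members, the leading transcript was coding in 19. It held at least 80% of the gene's TPM in both libraries for 8 of the 20, and on the mean of the libraries for 10, with Slc25a39-201 (77.9% and 90.4%) and Slc25a42-201 (78.7% and 86.0%). Among the 8 were Slc25a4-201 (97.1% and 97.4%), Slc25a20-201 (98.3% and 98.9%) and Ucp3-201 (92.6% and 90.0%). Ucp2 was more divided, with Ucp2-210 at 56.8% and 54.2%.

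Slc25a12 was the exception. Its leading transcript, Slc25a12-207, is annotated as a target of nonsense-mediated decay, the pathway that removes messages with an early stop, and held 73.0% of the gene's TPM in replicate 1 and 73.1% in replicate 2. The coding transcript Slc25a12-206 held 16.9% and 15.5%. Leaving Slc25a12 out, coding transcripts held 96.0% and 96.6% of the members' TPM. Slc25a12-207 differs from Slc25a12-206 in lacking the 116-nt coding exon at chr2:71333605-71333720 (mm10, minus strand), whose loss shifts the reading frame, in starting 216 nt later and in ending 3627 nt earlier. The exon is printed in lower case throughout because it has no marked part.
Slc25a12 skipped exon: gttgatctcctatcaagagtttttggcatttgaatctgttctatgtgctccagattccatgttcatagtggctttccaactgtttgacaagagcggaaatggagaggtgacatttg
The tables assign reads to whole transcripts, so the missing exon, the later start and the earlier end cannot be told apart, and the share is not a measure of exon skipping. In the second tables Slc25a12-207 still led, at 55.0% and 52.2%, with Slc25a12-206 at 17.6% and 15.6%.

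The lead was the same in both kinds of table for 17 of the 20 members. Exceptions were Slc25a51, led by Slc25a51-205 in the first tables (41.9% and 43.4%) and Slc25a51-202 in the second, and Slc25a22, by Slc25a22-203 (51.8% and 66.7%) and Slc25a22-201. Slc25a51-202 was at 0 TPM in both libraries of the first tables. Slc25a25-205 held 43.2% and 43.3%, Slc25a23-206 64.2% and 66.4%, and Slc25a36-202 43.9% and 44.6%. Slc25a28-201 (49.6% and 69.0%), Slc25a44-201 (46.9% and 63.8%) and Slc25a16-201 (76.3% and 73.2%) also led without reaching 80% in either library. These shares are those of the first tables. In the second, Slc25a28-201 held 65.6% in replicate 1 and 85.9% in replicate 2.

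**Figure D5:**
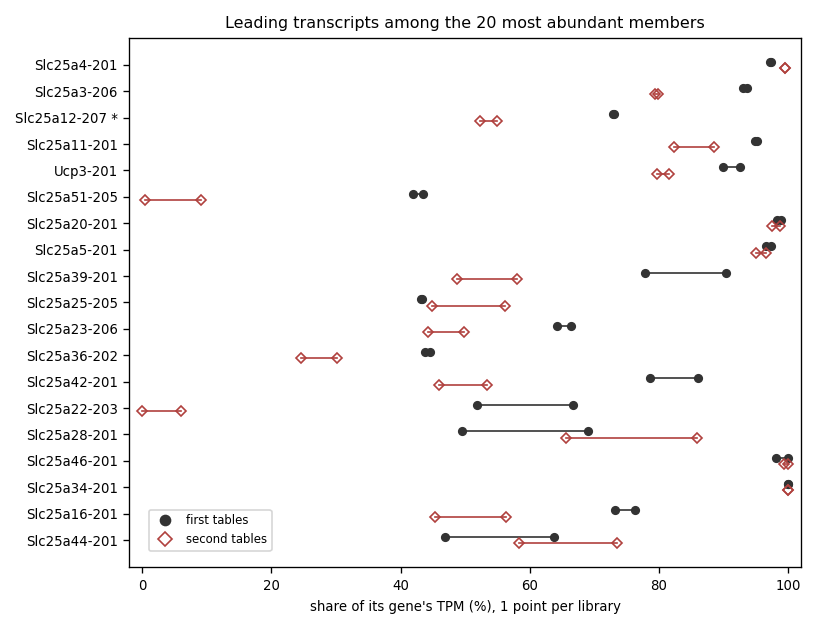
Share of its gene's TPM held by the leading transcript of 19 of the 20 most abundant members, 1 point per library; black circles are the first tables and red diamonds the second, and an asterisk marks the transcript annotated for nonsense-mediated decay. Slc25a12-207 leads its gene in both kinds of table, whereas Slc25a51-205 and Slc25a22-203 fall to under 10% in the second.

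Gene levels differed between the kinds of table as well. Over the 32 members with a summed count of at least 200, second-table TPM was a median 1.43 times the first-table TPM, against 1.46 times over all such protein-coding genes. The ratio was lowest for Slc25a51 (1.14), Slc25a26 (1.17), Slc25a22 (1.27), Slc25a46 (1.27) and Slc25a30 (1.31). It was highest for Ucp2 (1.98), Slc25a16 (1.97), Slc25a39 (1.96), Slc25a23 (1.85) and Slc25a38 (1.64). Levels are therefore compared between genes only within a kind of table.

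Some member reads could come from an overlapping gene on the other strand, because no source used here says whether counting used strand. Among others, such exons overlap Slc25a11 by 189 nt (Rnf167, with 878 and 807 reads) and Slc25a26 by 144 nt (Lrig1, with 3610 and 3012 reads). They overlap Slc25a25 by 379 nt (Naif1, with 135 and 120 reads) and Slc25a18 by 32 nt (Atp6v1e1, with 1964 and 2033 reads). Slc25a35, with 82 and 97 reads, is overlapped by 1151 nt of Rangrf, which had 536 and 577 reads. In the first tables the counts of Slc25a35 were whole numbers, with a posterior standard deviation of 0 in both libraries. Gm13068, an antisense gene that shares 281 nt with Slc25a33, had 0 reads where Slc25a33 had 272 and 287. Whether counting used strand was not tested. No such overlap was annotated for Slc25a34, Slc25a22, Slc25a20 or Slc25a13. The reference carries B6 sequence, so a CAST allele that differs from it may lose some of its reads; no allele was counted apart.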

How the data were processed

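Expected counts and TPM per gene and transcript were deposited by the authors in first tables with the layout of RSEM, derived from transcriptome alignments per the deposited notes. The posterior mean TPM and posterior standard deviations in them deposited by the authors were treated as scores. Second tables, with estimated counts and TPM deposited per transcript in the layout of kallisto, were summed to genes. Assembly mm10 and GENCODE M21 are given per the deposited notes; aligner and counter are not given in the sources used. Rows left out of the tests were the 26248 entries with numeric names, holding 1 and 0 reads, and the 96 ERCC RNAs.

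The deposited estimated counts were rounded, scaled by TMM (edgeR 4.0.16, R 4.3.3), and tested with SciPy 1.17.1 after 0.5 was added for the log2 ratio. At the depth of the libraries 3 reads equal 0.0699 and 0.0706 CPM. With 1 group of 2 libraries no quasi-likelihood test exists. The test was checked on simulated data that held counting error alone, so the check does not cover other variation between libraries. DESeq2 1.42.0 gave alternative size factors. Coordinates come from GENCODE M21, promoters from RefSeq. Members, lists, tests and the rule for named genes (the 20 most abundant, uncoupling proteins and relatives, members past 1.5-fold or at 0 reads, and those differing most between tables) were chosen with earlier results of these data known. Values of 1 member and 1 partner gene are not reported here. Biopython 1.88 aligned sequences. Alternatives covered scaling, filters, fold, kind of table, posterior means and leaving out a library.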

Additional observations from a re-analysis of the deposited data

How the results depend on the processing

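The count of carrier genes higher in replicate 2, 16, lay between 15 and 17 over the 7 alternatives of scaling, filter, table and count. The count past 1.5-fold, 4, was 3 with a summed count of at least 200 or at 2-fold, and 4 otherwise. The 2 members higher in replicate 1 became 0 with ERCC spike-in totals and 0 in the second tables, where 0 and 2 had an unadjusted p under 0.05 by the exact binomial test, and 1 with no filter on low counts, which adds genes to the adjustment. The median log2 ratio of 0.13 became 0.18 with ERCC totals and 0.18 in the second tables. The ERCC scaling put the median of all genes at 0.05. ERCC totals and the second tables made every call one of higher in replicate 2, against 88.9% of calls.

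Summed TPM, 2221, was 3349 in the second tables and 4759 when TPM was rescaled to protein-coding genes. The exon 3A share, 94.2%, was 82.5% in the second tables. Leaving out a library gave 2069 to 2374 TPM, a Slc25a4 share of 97.6% to 98.0% and an exon 3A share of 93.9% to 94.5%; the ratios between libraries have no such value. No paired analysis was possible because the series has 1 group. Members under 20 reads in sum could not be tested at this depth.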
